A study of Mus musculus with 4 samples.

Results

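Immune checkpoint ligands are proteins on the surface of tumour cells, or made by them, that restrain attack by T cells, natural killer (NK) cells or macrophages. The 10 genes described here were chosen by name from this group: Cd274, Pdcd1lg2, Cd276, Cd47, Cd80, Cd86, Lgals9, Pvr, Nt5e and Entpd1. They were found through the RefSeq transcript that each array probe is annotated with, and they held 18 of the 56605 distinct probes and 10 of the 23785 gene symbols on the array. The tumour cells were S-180, a transplantable mouse sarcoma line grown in RPMI medium with 10% fetal bovine serum. In one group (2 samples, fluoxetine 1 and fluoxetine 2) the cells were cultured for 12 h with 20 µM fluoxetine, a selective serotonin reuptake inhibitor, and in the other (2 samples, control 1 and control 2) for 12 h without it. Both groups are one cell line at one dose and one time, the vehicle is not named in the labels, and no immune cells were added per the labels. RNA of each sample was hybridised to one single-colour Agilent array. The labels call the samples biological replicates without saying whether the cultures were separate, so p-values measure only the spread between these samples.

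Several of these ligands work by binding an inhibitory receptor on an immune cell. PD-L1 and PD-L2 bind PD-1 on T cells, CD80 and CD86 bind the stimulatory receptor CD28 and the inhibitory receptor CTLA-4, and CD47 binds SIRPα on macrophages and holds back phagocytosis. CD155, the product of Pvr, binds the inhibitory receptor TIGIT and the activating receptor DNAM-1 on NK and T cells. CD39 and CD73 act as enzymes, and in sequence they turn extracellular ATP into adenosine, which dampens T cell activity.

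With fluoxetine, Cd80 was lower by 1.19 on the log2 scale on the only one of its probes that was well above background. It was the only ligand gene called changed. A probe of Pvr was 2.21-fold higher, but the brighter probe of the same gene did not pass the test. Cd274, Cd47, Lgals9 and Nt5e were measured on every array and did not pass. The other 4 genes, Pdcd1lg2, Cd276, Cd86 and Entpd1, were too dim to be tested. Of the 18 probes, 8 were well above background on all 4 arrays and 8 on no array.

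A signal here is the processed intensity of a spot, background-corrected but not scaled between arrays. The brightness at the 75th percentile of the probes was 356 and 419 on the fluoxetine arrays, against 449 and 415 on the control arrays, so changes were computed after dividing each array by its own 75th percentile. A change is the log2 difference, fluoxetine minus control, and the error after ± is its standard error from limma with n = 2 arrays per group. A gene was called at a Benjamini-Hochberg adjusted p under 0.05 over all 13539 genes tested, each represented by its brightest kept probe. By this rule 26.9% of all genes were called, of which those higher made up 16.8% and those lower 10.1% of the genes, so the 1 call among the 6 tested ligand genes is to be read against that background. With either fluoxetine array left out, 0 of the 13539 genes were called (limma; 4070 and 4537 genes at an unadjusted p under 0.05), so every call given here, of ligands and of other genes, is lost in both of these fits. The median change was −0.12 over the 6 tested ligand genes and 0.06 over all genes tested. Where a gene had more probes, their tests came from a fit over all 28270 kept probes, of which 25.6% were called. The groups did not overlap on 4 of the 8 tested ligand probes, against 72.5% of all kept probes. A probe's brightness depends on its sequence, so levels were not compared between genes or between probes, and the genes have no order of abundance here.

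**Figure D1:**
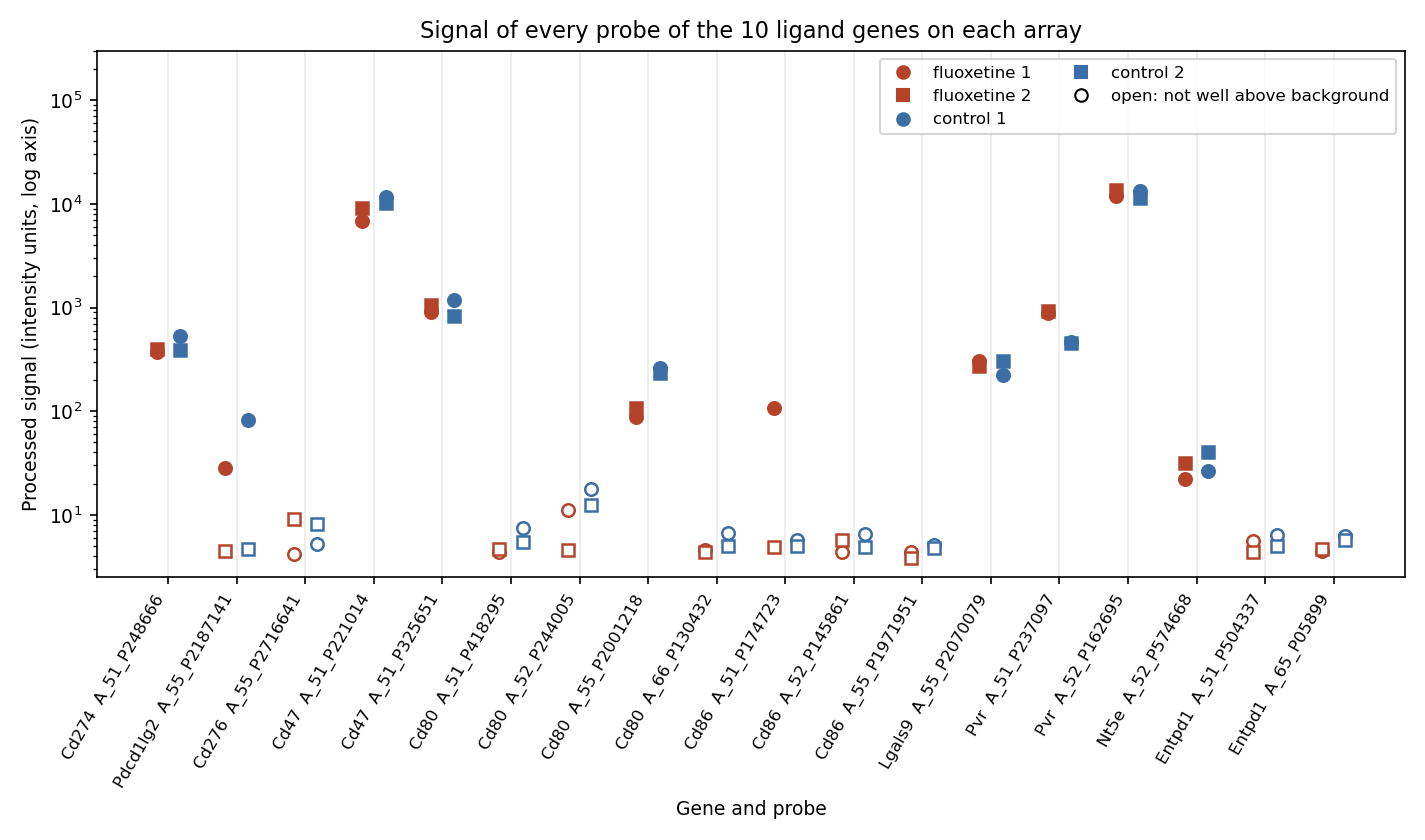
Processed signal (log axis, intensity units) of all 18 ligand probes on each array, fluoxetine to the left of control, with open symbols where the spot was not well above background. Cd80 probe A_55_P2001218 and Pvr probe A_51_P237097 show separate groups, while 8 of the probes have open symbols on every array. Heights of different probes are not comparable.

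The promoters of the ligand genes are shown where they help place the genes among pathways known to control them. RefSeq promoter windows (build GRCm38.p6, 250 bases before and 50 from the start site on) were matched for 8 of the 10 genes, with 10 windows in all. Pvr and Cd86 were not matched. The windows of Cd80 (chr16:38458683-38458982, plus strand), which fell, and of Cd274 (chr19:29367188-29367487, plus strand) and Lgals9 (chr11:78984875-78985174, minus strand), which are both known to respond to interferon and were not called, read as follows, with capitals marking motif matches.
Cd80: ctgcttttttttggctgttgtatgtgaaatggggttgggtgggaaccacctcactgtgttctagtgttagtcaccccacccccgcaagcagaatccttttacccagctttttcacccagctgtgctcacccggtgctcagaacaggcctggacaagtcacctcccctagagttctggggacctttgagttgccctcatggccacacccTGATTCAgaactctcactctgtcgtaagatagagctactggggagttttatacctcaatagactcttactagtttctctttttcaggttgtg
Cd274: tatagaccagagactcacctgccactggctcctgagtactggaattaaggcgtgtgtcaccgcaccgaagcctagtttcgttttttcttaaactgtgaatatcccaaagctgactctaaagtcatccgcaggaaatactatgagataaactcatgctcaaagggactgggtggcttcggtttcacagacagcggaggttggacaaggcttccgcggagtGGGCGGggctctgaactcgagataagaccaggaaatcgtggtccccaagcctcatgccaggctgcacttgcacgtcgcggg
Lgals9: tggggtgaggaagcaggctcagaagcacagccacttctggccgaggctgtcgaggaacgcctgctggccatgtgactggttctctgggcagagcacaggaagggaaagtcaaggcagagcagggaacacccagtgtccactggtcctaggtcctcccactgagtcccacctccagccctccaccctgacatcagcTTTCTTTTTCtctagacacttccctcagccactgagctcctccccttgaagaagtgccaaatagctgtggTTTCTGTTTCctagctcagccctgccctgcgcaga
The capitals in Cd80 mark TGANTCA, searched as the AP-1 motif with any base at N, here T (first base at −42 from the start site). In Cd274 they mark GGGCGG (the GC box, at −31). In Lgals9 they mark the interferon-stimulated response element (GAAA, any 2 bases, GAAA, read on the other strand, at −55 and 16). On both strands, and over all 32851 promoter windows of this length, TGANTCA was found in 7.81%, GGGCGG in 35.7% and the interferon-stimulated response element in 3.44%. Of the other motifs searched in the ligand windows, the NF-κB consensus (4.51% of all windows) matched in 1 window, that of Pdcd1lg2. TTCNNNGAA, the gamma-activated site (8.3%), CACGTG, the E-box (7.15%), and TGATGNAAN, an ATF4 element (3.95%), matched in 0 of the 10 windows. GGGCGG matched in 5 of the 10, counting Cd47 more than once, since its windows overlap and hold the same matches. No matches of different motifs overlapped. A match is only a run of letters, and none was tested for binding.

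Cd80 encodes a B7 family protein that binds CD28 and CTLA-4. Its probe A_55_P2001218 read 88.1 and 107 on the fluoxetine arrays, against 263 and 233 on the control arrays. Both fluoxetine values lay below both control values, as they did for 72.5% of all tested genes in one direction or the other. The scaled change was −1.19 ± 0.08, or 2.28-fold lower in fluoxetine (limma, adjusted p = 0.00982), and 94.0% of the kept probes changed by less. In the fit over all probes it also passed (limma, adjusted p = 0.0141), as did 13% of all probes in that direction. The call rests on few arrays: the change was −1.17 without fluoxetine 1 (adjusted p = 0.0703) and −1.21 without fluoxetine 2 (adjusted p = 0.0640), neither of them called. It was also not called without the filter on dim probes (adjusted p = 0.0799). For a single gene on 4 arrays, the smallest two-sided p of an exact permutation test is 0.333.

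Cd80 had 3 further probes, and all of them were dim. A_52_P244005, annotated with the same transcript, read 11.2 and 4.53 in fluoxetine, against 17.7 and 12.5 in control. A_66_P130432, also of that transcript, read between 4.40 and 6.67, and A_51_P418295, of another Cd80 transcript, between 4.36 and 7.42. None of these was well above background on any array, control included, where A_55_P2001218 read 263 and 233. The fall in Cd80 was thus seen on 1 of its 4 probes, and the others were too dim to show or contradict a fall. Whether the signal of A_55_P2001218 is that of Cd80 was not tested. In RNA from whole cultures, fewer cells that make a transcript and less of it per cell cannot be told apart.

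CD80 is best known from antigen-presenting leukocytes, and leukocyte markers were read beside it. Ptprc, the pan-leukocyte gene CD45, read 4.66 and 4.24 in fluoxetine, against 6.16 and 4.92 in control. It was not well above background on any array. Of 21 leukocyte markers, 10 had no probe well above background on any array, among them Cd8a, Itgax, Adgre1, Lyz2 and Spi1. The summed scaled signal of the list was 77.6 and 69.4 in fluoxetine, against 43.1 and 46.3 in control, in multiples of the 75th percentile. Bright probes weigh most in such a sum, and without Cd68 it was 19.1 and 19.1 in fluoxetine, against 23.6 and 24.4 in control, lower with fluoxetine. The members with the highest mean signal over all 4 arrays were Cd68, Cd14 and Itgam. Cd68, a lysosomal glycoprotein gene, read 20844 and 21034 in fluoxetine, against 8752 and 9101 in control, and rose (1.39 ± 0.12, limma, adjusted p = 0.0119), as did its other kept probe (1.68). Itgam, an integrin subunit of myeloid cells, read 442 and 532 in fluoxetine, against 2210 and 2007 in control, and fell on this probe (−1.96 ± 0.07, limma, adjusted p = 0.00636), while its other kept probe was at 0.83 ± 0.58. Cd14, the endotoxin co-receptor, read 4295 and 4778 in fluoxetine, against 5534 and 5537 in control, and did not pass. Of the 9 markers tested, against 26.9% of all genes called, 2 rose, 1 fell and 6 did not pass, the other rise being Cd3e (0.52 ± 0.10), a T cell receptor component whose other kept probe was at −0.21. The part of leukocyte transcripts in the change of Cd80 was not tested.

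The genes whose pattern over the 4 arrays was most like that of Cd80 were Fbxw10, an F-box gene, Adgrl1, which encodes a latrophilin receptor, and the gene model Gm29968. Their centred log2 values differed from those of Cd80 by a root mean square of 0.016, 0.024 and 0.034. Their changes were −1.21 ± 0.08, −1.16 ± 0.07 and −1.14 ± 0.09. Likeness over only 4 arrays shows no link between genes, and 46 of the 12726 genes compared lay within 0.1 of Cd80.

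Cd86 encodes the companion of CD80, with the same receptors. Its probe A_51_P174723 read 108 and 4.86 in fluoxetine, against 5.77 and 5.06 in control. Only fluoxetine 1 was well above background there, and the other fluoxetine array sat with both controls. Its other 2 probes, of the same transcript, read between 3.87 and 6.57 and were not well above background on any array. Cd86 was therefore not tested.

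Pvr encodes CD155, the ligand of TIGIT. Its brighter probe, A_52_P162695, read 11822 and 13562 in fluoxetine, against 13180 and 11364 in control. These signals overlapped before scaling and were slightly higher in fluoxetine after it, with a change of 0.21 ± 0.08 that did not pass (95% confidence interval −0.01 to 0.43, limma, adjusted p = 0.127). The other probe, A_51_P237097, annotated with the same transcript, read 878 and 932 in fluoxetine, against 465 and 451 in control. Both fluoxetine values lay far above both control values on this probe. Its change of 1.14 ± 0.10 passed in the fit over all probes (limma, adjusted p = 0.0147), as did 12.6% of all probes in that direction. It missed without fluoxetine 1 (1.07), without fluoxetine 2 (1.22) and without control 1 (1.11), with adjusted p up to 0.0840 over the arrays left out.

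The 2 Pvr probes differed from each other by 0.93 in their change. Kept probes disagreed at least this much in 11.6% of the 4968 genes with more than one kept probe, and in 35.4% of those genes some kept probes were called and others not. A call for Pvr thus depends on how its probes are combined and on the processing. The mean of both probes gave 0.68 (limma, adjusted p = 0.0163). For the brighter probe, scaling by the median of each array gave 0.42 (limma, adjusted p = 0.0239). Median scaling shifts all genes of an array alike and leaves Pvr 0.15 above the median change of all genes, as before. Normexp background correction gave 0.044 for the brighter probe (limma, adjusted p = 0.803). The part of the transcript that each probe reads was not analysed here.

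**Figure D2:**
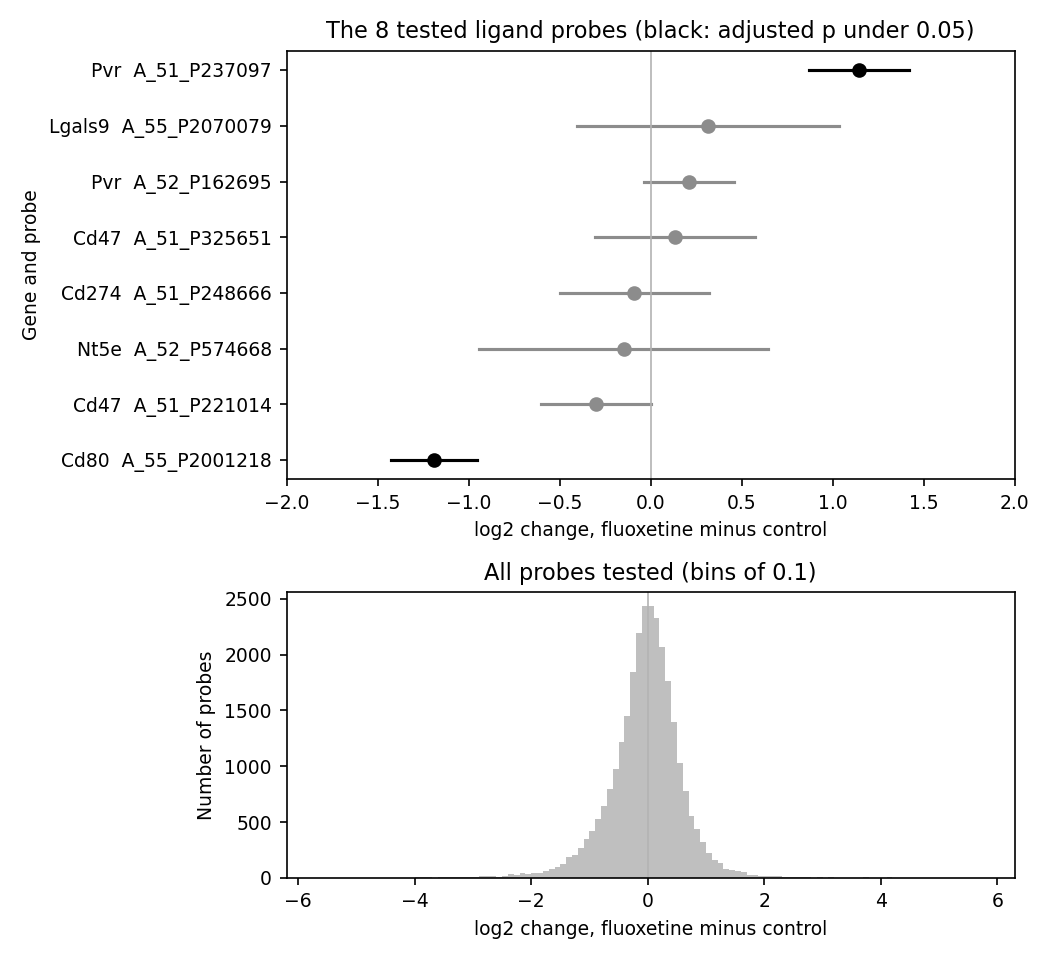
Upper panel: log2 change (fluoxetine minus control) of the 8 tested ligand probes, with 95% confidence intervals from the fit over all kept probes; Pvr probe A_51_P237097 at 1.14 and Cd80 probe A_55_P2001218 at −1.19 are the 2 that passed. Lower panel: number of probes per bin of log2 change among all 28270 probes tested, most of which lie closer to 0 than these 2.

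Cd274 encodes PD-L1 and had 1 probe. It read 368 and 397 in fluoxetine, against 528 and 392 in control. Control 1 stood above the other 3 arrays, which lay close together. The change was −0.09 ± 0.14 and did not pass (95% confidence interval −0.47 to 0.30, limma, adjusted p = 0.652), and it was 0.07 without control 1. The interval leaves out a fall or a rise of Cd274 as large as that of the called probes of Cd80 and Pvr.

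Pdcd1lg2 encodes PD-L2, the other ligand of PD-1. Its single probe read 28.6 and 4.45 in fluoxetine, against 82.1 and 4.65 in control. Replicate 1 of each group was well above background and replicate 2 of each was not, so the spread within a group was wider than the difference between the groups. The gene was not tested. Cd276, which encodes the B7 family protein B7-H3, read 4.16 and 9.09 in fluoxetine, against 5.18 and 8.13 in control. It was not well above background on any array.

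Cd47 encodes the ligand of SIRPα on macrophages. Its brighter probe, A_51_P221014, read 6867 and 9162 in fluoxetine, against 11744 and 10183 in control. Both fluoxetine values were below both control values. The change of −0.30 ± 0.10 did not pass over all genes (95% confidence interval −0.58 to −0.02, limma, adjusted p = 0.0974), though it passed when the spread was allowed to follow intensity (limma with a trend, adjusted p = 0.0459). It shrank to −0.088 when arrays were scaled by their median (adjusted p = 0.522) and to −0.084 as the mean of both Cd47 probes (adjusted p = 0.593). A_51_P325651, annotated with another Cd47 transcript, read 905 and 1047 in fluoxetine, against 1174 and 837 in control. The groups overlapped on this probe, at a change of 0.13 ± 0.16.

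Lgals9 encodes galectin-9, a secreted lectin that binds TIM-3 on T cells. It read 305 and 273 in fluoxetine, against 223 and 303 in control. Control 1 was the low value and the other 3 arrays overlapped. The change of 0.31 ± 0.25 did not pass (95% confidence interval −0.37 to 1.00, limma, adjusted p = 0.385), and it was 0.59 without control 2 or lower with any other array left out, down to 0.03.

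Nt5e encodes CD73, which makes adenosine from AMP. It read 22.0 and 31.3 in fluoxetine, against 26.5 and 40.0 in control. These were close to the dimmest signals marked above background, which ran from 15.8 to 22.3 over the arrays. The change of −0.15 ± 0.27 did not pass (95% confidence interval −0.90 to 0.61, limma, adjusted p = 0.704), and it turned to 0.20 without control 2. Entpd1 encodes CD39, which acts before CD73. Its probe A_51_P504337 read 5.64 and 4.40 in fluoxetine, against 6.39 and 4.99 in control. A_65_P05899 read 4.53 and 4.72 in fluoxetine, against 6.27 and 5.70 in control. Neither was well above background on any array.

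The genes that act on or beside these ligands were read as lists, counting every listed gene whatever its change. Among 16 other inhibitory ligands, 11 were tested, of which 4 rose, 0 fell and 7 did not pass (median 0.27, against 0.06 over all genes, of which 16.8% were called higher). The members that rose were Btn1a1, a butyrophilin gene (0.59 ± 0.09, limma, adjusted p = 0.0228), Nectin2, which encodes a second ligand of TIGIT and DNAM-1 (0.59 ± 0.10, adjusted p = 0.0278), Cd24a, whose product binds a Siglec receptor (0.52 ± 0.08, adjusted p = 0.0208), and Clec2d, a ligand gene for an inhibitory NK receptor (0.49 ± 0.11, adjusted p = 0.0426). The call of Clec2d rests on that probe: its other kept probe was at 0.088 (limma over all probes, adjusted p = 0.469), and the mean of both, 0.29, did not pass (adjusted p = 0.0568). The other kept probe of Cd24a was at 1.01 and also passed. Nectin2 read 692 and 703 in fluoxetine, against 533 and 503 in control, and its other kept probe gave 0.58. The galectin genes Lgals1 (0.06) and Lgals3 (0.27) did not pass.

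Ligands that stimulate immune cells were mostly dim. Of 15 listed, 4 were tested, 1 rose and 3 did not pass (median 0.08), against 16.8% of all genes called higher. Calr, the calreticulin gene, whose product marks cells for phagocytosis when it reaches the surface and opposes CD47 there, read 7288 and 8345 in fluoxetine, against 5966 and 5721 in control (0.58 ± 0.07, limma, adjusted p = 0.0178). The NKG2D ligand genes Raet1e (0.28) and Ulbp1 (−0.11) and the adhesion gene Icam1 (−0.53) did not pass. Of 14 receptors of these ligands, 3 were tested and 0 called (median −0.05), against 26.9% of all genes called. Tigit was at −0.29, Havcr2, which encodes TIM-3, at 0.41 and Siglecg at −0.05. Pdcd1, Sirpa and Cd226 were not well above background on any array.

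Among 25 other genes of extracellular purines and adenosine, 17 were tested, of which 2 fell, 0 rose and 15 did not pass (median 0.22, against 10.1% called lower and 16.8% called higher over all genes). Of the 2 falls, that of Adora2a rests on a gene kept only because it was above background in control. Slc29a2, a nucleoside transporter gene, read 135 and 150 in fluoxetine, against 327 and 300 in control (−0.98 ± 0.08, limma, adjusted p = 0.0111). Adora2a, the adenosine receptor that restrains T cells, read 10.4 and 18.8 in fluoxetine, against 37.8 and 28.6 in control. It was not well above background in fluoxetine, and the array means put it at least 1.61-fold lower there. That bound sets the control mean against the higher of the probe's own signal and the dimmest signal above background on each fluoxetine array. It takes no account of the spread between arrays. With normexp background correction (offset 50) the change of Adora2a was −0.13 (limma, adjusted p = 0.379). The call of Adora2a was lost without any 1 of the 4 arrays, and in 12 of 13 alternatives in all. Adora2b (−0.27) did not pass, nor did Entpd5 (0.26) and Entpd6 (0.27), of the gene family of Entpd1, or P2rx4 (0.33), an ATP receptor gene. In the fit over all probes, the other kept probes of Entpd5 (0.63, limma, adjusted p = 0.0247) and of P2rx4 (0.96, adjusted p = 0.0155) were higher with fluoxetine and passed.

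All 17 genes listed as acting on the ligand proteins were tested, and 3 rose, 0 fell and 14 did not pass (median 0.09), against 16.8% of all genes called higher and 10.1% called lower. Hip1r, whose product sends PD-L1 to the lysosome in human cells, read 448 and 492 in fluoxetine, against 227 and 255 in control (1.13 ± 0.13, limma, adjusted p = 0.0151). Usp22, a deubiquitinase gene (0.53 ± 0.12, adjusted p = 0.0402), and Spop, which encodes the substrate adaptor of a ubiquitin ligase (0.39 ± 0.08, adjusted p = 0.0380), also rose. Their other kept probes were at 1.24 for Usp22, which passed, and 0.57 for Spop, which did not. Cmtm6, which keeps PD-L1 at the cell surface, was at 0.27, and Qpctl, which modifies CD47 so that SIRPα can bind it, at 0.04. Neither passed.

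Of 21 regulators of interferon and NF-κB signalling, all were tested, and 3 rose, 2 fell and 16 did not pass (median 0.09), against 26.9% of all genes called. Socs1, a feedback inhibitor of interferon signalling, read 982 and 1093 in fluoxetine, against 2341 and 2444 in control (−1.05 ± 0.10, limma, adjusted p = 0.0127). Ifngr2, an interferon gamma receptor chain gene (0.73 ± 0.13, adjusted p = 0.0281), Relb, an NF-κB subunit gene (0.68 ± 0.08, adjusted p = 0.0155), and Stat3 (0.40 ± 0.08, adjusted p = 0.0317) rose, and Socs3 fell (−0.40 ± 0.08, adjusted p = 0.0348). Irf1 (0.26), a transcription factor gene through which interferon gamma acts on Cd274, did not pass.

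**Figure D3:**
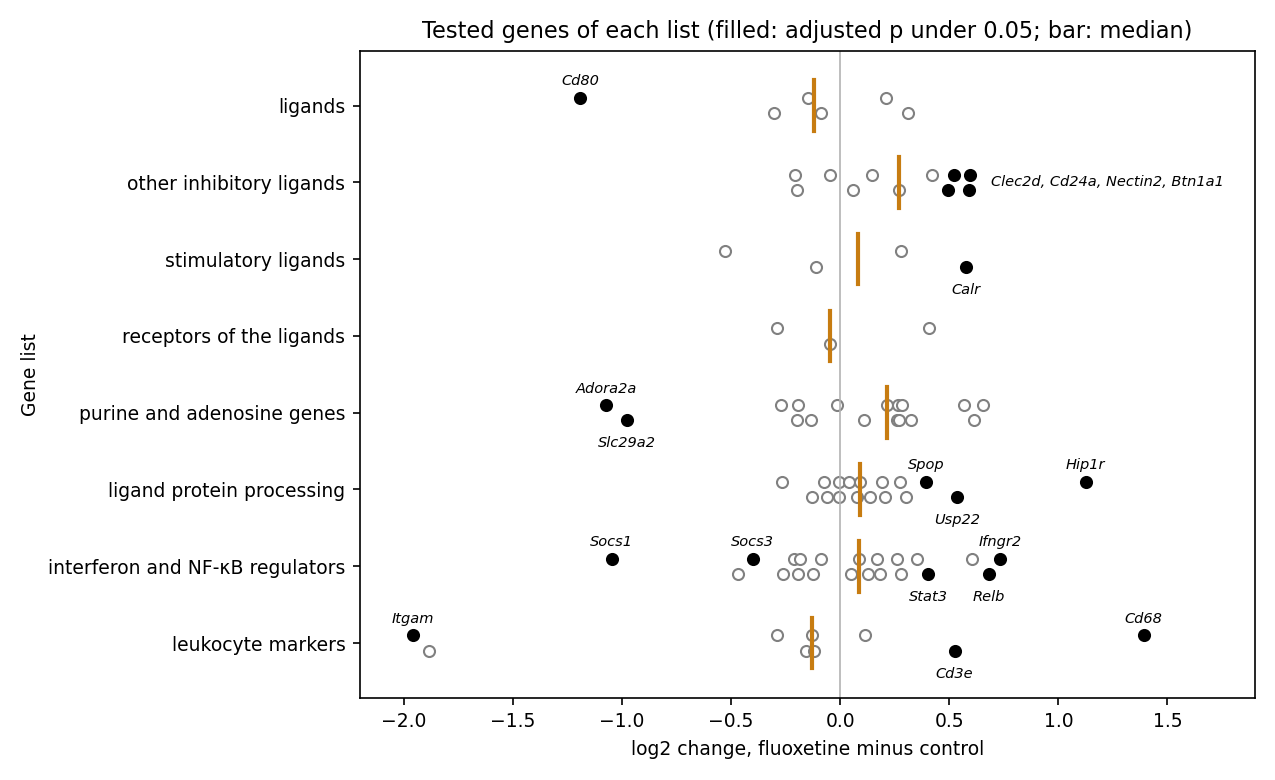
log2 change (fluoxetine minus control) of each tested gene in the ligand list and 7 related lists, filled where the adjusted p was under 0.05, with the list median as a bar. The ligand list has 1 filled point, Cd80 at −1.19, and 5 open ones between −0.30 and 0.31.

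Markers of the tumour line were read on the same arrays. Of 15 mesenchymal markers, 9 were tested, 3 of which fell and 0 rose (median −0.43, against 10.1% of all genes called lower). Those that fell were Tagln (−0.59), Sparc (−0.62) and Col1a2. Col1a2 was kept only because it was above background in control. By the same bound of array means it was at least 2.38-fold lower in fluoxetine. With normexp background correction its change was −0.54 (limma, adjusted p = 0.0197). The other kept probe of Sparc was at −0.16 and did not pass, and 1 of the 3 kept probes of the fibronectin gene Fn1 was higher with fluoxetine in the fit over all probes (0.41, limma, adjusted p = 0.0419). Col1a1 did not pass on its brighter kept probe (−0.43), while its other kept probe was lower in that fit (−0.86, limma, adjusted p = 0.0190). Those with the highest mean signal over all arrays were Vim, S100a4 and Sparc. Vim read 13909 and 17069 in fluoxetine, against 22297 and 14310 in control, and S100a4 13388 and 14148 in fluoxetine, against 15719 and 14904 in control. Sparc read 5340 and 6067 in fluoxetine, against 10286 and 9345 in control. Col3a1, Pdgfrb, Thy1, Lum, Dcn and Fap were not well above background on any array. The epithelial keratin genes Krt8 and Krt18 and the epithelial marker gene Epcam were above background on every array. Krt8 read 40559 and 47177 in fluoxetine, against 57244 and 54884 in control. Krt18 read 24860 and 27624 in fluoxetine, against 36636 and 37266 in control. Of 7 epithelial markers 5 were tested, and 1 fell, against 10.1% of all genes called lower. The fall was that of the keratin gene Krt14 (−2.15 ± 0.11, limma, adjusted p = 0.00761). All 4 arrays came from one slide and one scan per the file headers, with the arrays of a group on neighbouring places, so that group and position cannot be told apart.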

How the data were processed

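RNA of 2 fluoxetine and 2 control samples was measured on single-colour Agilent mouse arrays; per the labels, Cy3-labelled RNA was made from 10 ng per sample. The deposited values are spot intensity, which the authors obtained from scans (Feature Extraction version 12.1.0.3, per the file headers); the processed signal is background-corrected within the array. Later normalization is not stated in the labels. Other deposited columns used were the marks for control, saturated, non-uniform and outlying spots and for spots well above background, per the file headers.

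In R 4.3.3 with limma 3.58.1, control and marked spots were left out (47 probes), spots of one probe were averaged, and log2 signal was scaled to the 75th percentile of the distinct probes. The share of spots well above background was 51.7% to 53.5%, with 0 saturated spots. Pearson's r across the 25833 probes above background on all arrays was 0.995 between the fluoxetine arrays and 0.993 between the control arrays. Symbols came from RefSeq (GRCm38.p6) through transcript accessions without versions, and 34675 of 56605 probes had 1 symbol. A probe was kept when well above background on both arrays of a group; a gene took its brightest kept probe. Group was the only term (lmFit, eBayes). The script was tested on simulated data.

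The ligand genes and the other lists were chosen with earlier results of these data known. Every ligand gene was to be named, with up to 3 called genes with the largest changes of each other list, the 3 brightest leukocyte and mesenchymal markers and the 3 patterns nearest to the most changed ligand; other genes named were chosen after their values were seen. The list counts include 1 gene whose own values are not reported here. Alternatives covered background correction, scaling, dim-probe filter, spread, probe averaging, replicate numbers and each array left out. The number of arrays limits the precision.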

Additional observations from a re-analysis of the deposited data

Results flagged for a closer look

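The probe A_51_P174723 of Cd86 gave a signal of 108 on fluoxetine 1, well above background, where it read 4.86 on fluoxetine 2 and 5.77 and 5.06 on the control arrays. The probe belongs to no test, since it was well above background on only 1 of 2 fluoxetine arrays. The raw brightness of that spot was 154 over a local background of 31, and the array software marked it neither non-uniform nor outlying. The other Cd86 probes on fluoxetine 1 read 4.37 and 4.40. Whether it is signal of Cd86 was not tested.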

How the results depend on the processing

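Over all genes, 3647 were called, 62.3% of them higher with fluoxetine. Median scaling moved the median change of all genes to 0.27 from 0.06. Both scalings shift all genes of an array alike, so changes relative to that median are the same by construction (Cd80 −1.25, Cd274 −0.15, Nt5e −0.21). With median scaling the count of genes called was 6299, of which 87.1% were higher. It was 0 without a filter on dim probes (5272 at an unadjusted p under 0.05), and 0 to 2666 when 1 array was left out (4070 to 5612 unadjusted). The count of ligand genes called was 2 in place of 1 with median scaling (Pvr), with an intensity trend (Cd47) and with the mean of the kept probes (Pvr), 0 without a filter (1 at an unadjusted p under 0.05), and 0 to 1 with 1 array left out. The count of ligand probes called was 2, 0 without a filter (2 unadjusted) and 0 to 2 with 1 array left out.

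The sample numbers are shared between the groups, but nothing says that equal numbers share a culture, and the deviations of same-numbered arrays correlated at −0.14. With the replicate number as a block, 1859 genes were called, with 1 ligand gene and 2 ligand probes. With crossed numbers, an alternative added after the data were seen, the counts were 2679, 1 and 2.

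Cd80 stayed between −1.22 and −0.76 over 14 alternatives and lost its call in 3. Signs that turned were all of uncalled changes: Cd274 was 0.12 and Nt5e 0.065 with median scaling, Nt5e 0.055 with quantile normalization, and Cd47 probe A_51_P325651 −0.043 with normexp. With 1 array left out, Cd274 ran from −0.25 to 0.070, Nt5e from −0.50 to 0.20 and that Cd47 probe from −0.054 to 0.32. Normexp on the mean signal was not run because the files hold the median signal, which was used after the data were seen, as were a percentile over all spots and the leukocyte sum without Cd68. Fits without 1 array take the spread of the single array left in that group to be that of the other group.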
